A study of Mus musculus with 14 samples.

Results

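The SR protein and hnRNP splicing factors of skeletal muscle were the 31 protein-coding genes whose symbol was Srsf followed by a number or began with Hnrnp. They were 11 SR protein genes and 20 hnRNP genes among the 22046 protein-coding genes of the 54532 genes counted. Of these, 30 passed the filter on low counts and were tested, 10 SR protein and 20 hnRNP genes, and Srsf12 was removed by it. The 2 other rows with such a symbol, Hnrnpa1l2-ps and Hnrnpa1l2-ps2, are processed pseudogenes and were not members.

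SR proteins and hnRNPs are abundant nuclear proteins that bind newly made RNA and set which exons are joined. An SR protein holds a domain that contacts RNA and a tail rich in arginine and serine, which is phosphorylated by the SRPK and CLK kinases, and many SR proteins bind exonic enhancers and recruit the spliceosome. Most hnRNPs coat the transcript and often act as silencers of the exons or introns they bind, and genes of both families limit their own level through exons that direct the messenger RNA to decay. Muscle depends on regulated splicing for isoforms of titin, troponin and tropomyosin. c-Myc, a transcription factor that binds the E-box with its partner Max, is known from tumours to raise transcription of several splicing factors.

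RNA of skeletal muscle from FVB/N male mice was purified on poly-T beads and sequenced in 14 libraries. EC-Myc OE mice carried a human MYC transgene on the Y chromosome under a tetracycline-responsive promoter (tetO-MYC) and the transactivator tTA under the Cdh5 promoter, which is active in endothelial cells, a minority of the cells of a muscle. CT were littermates with tetO-MYC and without tTA. The doxycycline diet (#TD.01306), which holds the transgene silent, was withdrawn at 4 to 6 weeks of age, and the mice were fed for 20 weeks. Control diet #TD.08485 was given to CT-CTD (CT, n = 3) and OE-CTD (EC-Myc OE, n = 4), and the western, high-fat diet #TD.88137 to CT-WD (CT, n = 3) and OE-WD (EC-Myc OE, n = 4). A number after the name of a group is the replicate. The age at collection and the muscle, soleus or gastrocnemius, of each library were not given. For the transcriptome, the study's text gives a time on WD shorter than 20 weeks, and n = 3 on control diet and n = 4 on WD. This diet time and these group sizes differ from those of the labels, which were followed. If the names CT-WD and OE-CTD were exchanged, the values of the diet comparison in CT and of the genotype comparison on control diet would trade places, as would those of the diet comparison in EC-Myc OE and of the genotype comparison on WD. The group sizes in that text are those such an exchange would give, whereas the sample codes follow the labels, with CT-WD coded in the style of CT-CTD and OE-CTD in that of OE-WD. Within EC-Myc OE, OE-CTD 1 to 3 share a number in their codes that OE-CTD 4 lacks, and all OE-WD libraries share another.

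Counted reads per library were between 21833839 and 28519159. Levels are given as CPM, the counts relative to an effective library size set by TMM normalization, when libraries are compared, and as FPKM, which also divides by gene length, when genes are compared. The 12 skeletal muscle markers summed to between 128000 and 181000 CPM, with Myh4 at 49000 CPM the most abundant. Differences are given as log2FC, the log2 of the fold change fitted by edgeR, with its standard error (SE) and a p adjusted over all genes tested. Mouse Myc was between 3.06 CPM in OE-CTD 4 and 13.3 CPM in CT-WD 3, and the human MYC transcript was not analysed here.

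Some libraries stood apart before any group was compared. OE-CTD 4 and OE-WD 4 had the highest share of counts from mitochondrial genes, 14.9% and 14.5%, against between 9.66% and 12.8% in the other 12 libraries. They also had the lowest TMM factors, 0.888 and 0.899, against at least 0.945 elsewhere, and the highest sums of skeletal muscle markers, 176000 and 181000 CPM, against at most 168000 CPM elsewhere. CT-WD 3 stood apart in genes of the daily clock. Its Dbp-phase genes summed to 662 CPM, the lowest of all libraries, and its Bmal1-phase genes to 417 CPM, where the next highest library, CT-WD 2, had 284 CPM. Its immediate-early genes summed to 758 CPM, against between 214 and 434 CPM in the others. Single genes carried much of these sums, with Nfil3 at 226 CPM of the Bmal1-phase list and Atf3 at 307 CPM of the immediate-early list in CT-WD 3. CT-WD 1 differed from CT-WD 2 and 3 in connective tissue markers, with fibroblast genes at 1430 CPM against 466 and 455 CPM. Log2 fold changes of single genes that moved by over 1.5 times without CT-WD 1, CT-WD 3, OE-CTD 4 or OE-WD 4 are given with and without that library.

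Among the SR proteins, which promote exon inclusion in most settings, Srsf5 was the most abundant, at 42.3 ± 6.64 FPKM (SD, n = 14), and gave 25.6% of the summed FPKM of the family. Srsf2, which also takes part in the release of paused polymerase, followed at 33.3 ± 2.31 FPKM, and Srsf6 at 19.7 ± 1.29 FPKM. Srsf7 was at 17.1 and Srsf1, the founding member of the family, at 15.6 FPKM. Srsf3, which couples splicing to export, was at 9.30 FPKM, close to Srsf11 at 9.24 and Srsf9 at 9.17 FPKM. These 3 lay within their spread of each other. Srsf10, a splicing repressor when dephosphorylated, was at 5.42 and Srsf4 at 3.79 FPKM. Srsf12 was near absent, with 1 count in OE-CTD 1, 1 in OE-CTD 3, 4 in OE-WD 1 and 0 in each of the other 11 libraries. A count of 0 allows up to 3 counts, which is between 0.0990 and 0.153 CPM by library and covers counting error only.

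The hnRNPs gave 71.8% of the summed FPKM of all members and the SR proteins 28.2%. Hnrnpa2b1, a member of the A/B group with roles in splicing and RNA transport, was the most abundant of all 31 genes, at 68.7 ± 8 FPKM (SD, n = 14), or 16.4% of the hnRNP sum. In the same group, Hnrnpa1, a repressor of exon inclusion, was at 40.1 ± 3.59 FPKM and Hnrnpab at 39.4 ± 2.68 FPKM. Hnrnpa0 was at 30.6 FPKM, whereas Hnrnpa3, a close relative of Hnrnpa1 and Hnrnpa2b1, was at only 6.05 FPKM. Of the D group, whose proteins bind AU-rich elements, Hnrnpdl was at 25.0 and Hnrnpd at 6.55 FPKM. Of the F/H group, which binds runs of G, Hnrnph1 was at 25.1, Hnrnpf at 14.5, Hnrnph2 at 12.8 and Hnrnph3 at 8.69 FPKM.

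The members that bind other RNA elements covered a similar range. Hnrnpk, a poly(C)-binding protein, was at 24.5 FPKM and Hnrnpl, which binds CA repeats, at 24.4 FPKM, with its paralog Hnrnpll at 2.65 FPKM. Hnrnpm was at 24.3 FPKM and Hnrnpc, which binds runs of U, at 16.8 FPKM. Hnrnpu, a scaffold protein that also contacts chromatin, was at 17.8 FPKM, and its relatives Hnrnpul2 and Hnrnpul1 were at 20.2 and 10.4 FPKM. Hnrnpr was the lowest of the tested members, at 1.42 FPKM. In the order of levels, Hnrnpa2b1 ranked 615 of the 15458 genes tested and Hnrnpr 9457.

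**Figure D1:**
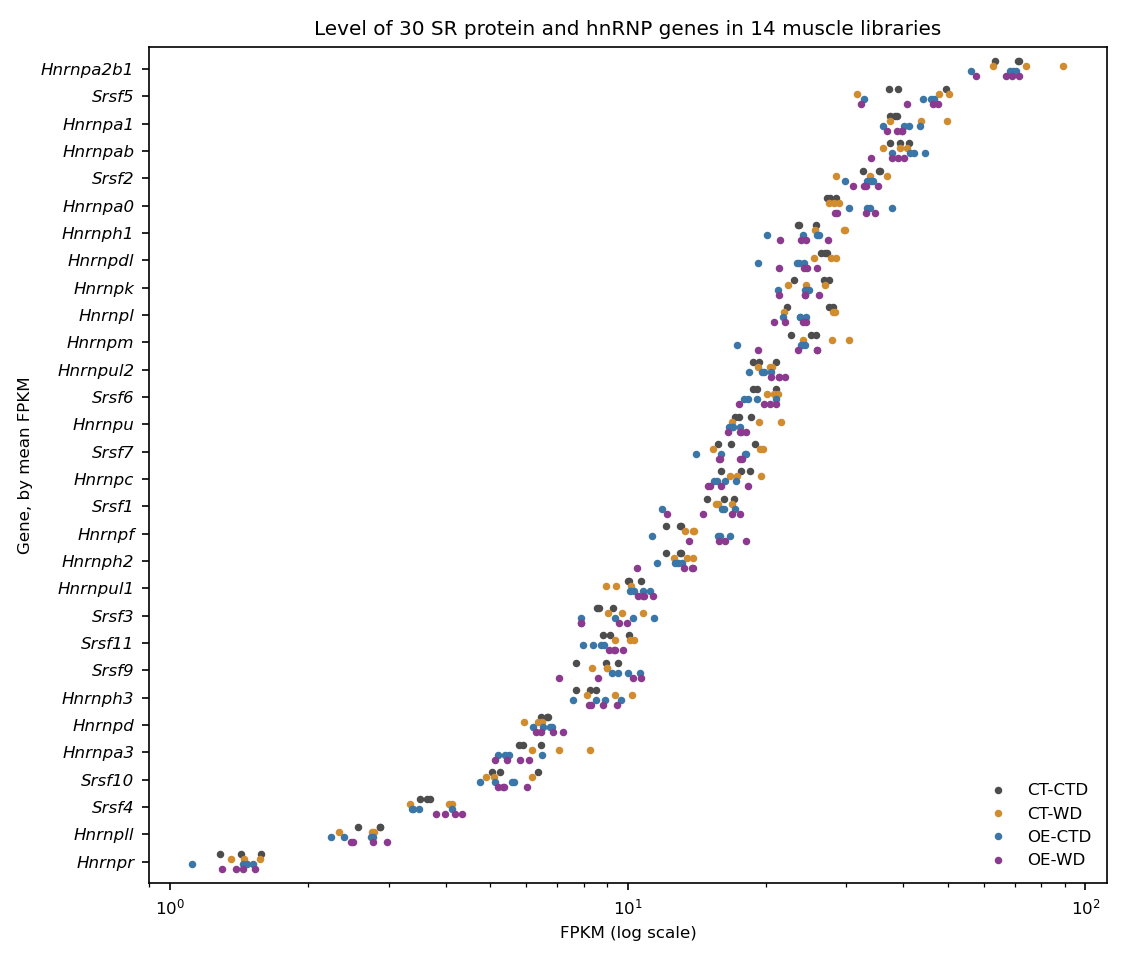
Level of each of the 30 tested members in FPKM on a log scale, a dot per library, coloured by group, ordered by the mean over 14 libraries. The mean runs from 1.42 FPKM for Hnrnpr to 68.7 FPKM for Hnrnpa2b1, and the dots of the 4 groups overlap for most genes.

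The members varied little between libraries of a group. Their median SD of log2 CPM within groups was 0.128, with 0.149 over the 10 SR proteins and 0.128 over the 20 hnRNPs, against 0.228 over all genes tested. Much of that gap goes with level, since the 5230 genes at 20 CPM or more had a median of 0.135. The most variable member was Srsf5, with an SD of 0.282, and the least variable was Hnrnpul1, with 0.0581. Over all 14 libraries the members spanned a median range of 0.458 on the log2 scale, and all genes tested 0.862.

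The summed level of each family was close to the same in the 4 groups. The SR protein sum was 165 ± 7.91 FPKM (SD, n = 3) in CT-CTD, 169 ± 14.3 (n = 3) in CT-WD, 163 ± 15.8 (n = 4) in OE-CTD and 164 ± 13.6 (n = 4) in OE-WD. The hnRNP sum was 417 ± 11.4, 440.5 ± 36.3, 413.7 ± 24.7 and 412.8 ± 22.6 FPKM in the same order. The SR protein means differed by less than the SD of any group, and the highest hnRNP mean, that of CT-WD, came with the widest SD. In CT-WD 3 the hnRNP sum was 475.8 FPKM, the highest of the 14, while the SR protein sum was 152.9 FPKM. The ratio of the sums was 3.11 there, against between 2.31 and 2.70 in the other 13 libraries.

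Of the libraries that stood apart in other genes, OE-CTD 4 and OE-WD 4 had the lowest median levels of the members and CT-WD 3, close to CT-WD 2, the highest, while CT-WD 1 had a median deviation of 0.02. The median deviation of the 30 members from their means was -0.18 on the log2 scale in OE-CTD 4 and -0.13 in OE-WD 4, and between -0.04 and 0.11 in the other 12 libraries. In OE-CTD 4, 26 of 30 members were below their mean and 13 had their lowest level, and in OE-WD 4 25 were below it and 6 had their lowest level. CT-WD 3 had the highest level of 8 members, all hnRNPs, and the lowest level of 5, of which 3 were SR proteins. In CT-WD 3 the median deviation was 0.14 for hnRNPs and -0.06 for SR proteins, with members of both families on either side of their mean. In OE-CTD 4 the medians were -0.17 and -0.22. The part of the muscle of origin, of mitochondrial share and of clock time in these deviations was not tested.

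**Figure D2:**
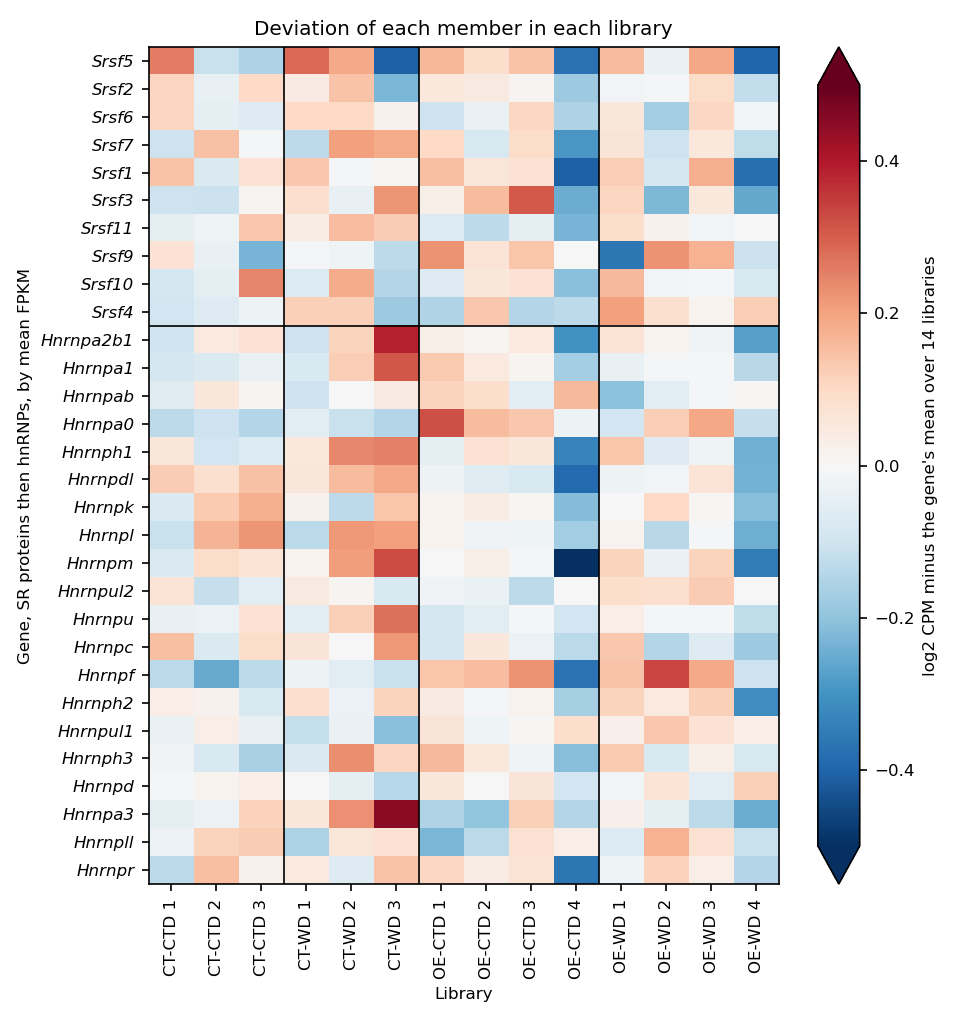
Log2 CPM of each tested member minus its mean over 14 libraries, SR proteins above the horizontal line and hnRNPs below, with vertical lines between the 4 groups. OE-CTD 4 and OE-WD 4 are blue for most genes, with medians of -0.18 and -0.13, and CT-WD 3 is red for most hnRNPs and blue for Srsf5.

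Srsf5 (ENSMUSG00000021134, chr12:80945504-80950507 of GRCm38, plus strand) had its lowest levels in 3 of the libraries that stood apart. It was at 182, 141 and 137 CPM in CT-CTD 1 to 3 and at 186, 174 and 115 CPM in CT-WD 1 to 3. Levels were 171, 162, 169 and 118 CPM in OE-CTD 1 to 4, against 170, 149, 174 and 116 CPM in OE-WD 1 to 4. CT-WD 3, OE-CTD 4 and OE-WD 4 were low and each of the 3 groups they belong to held other libraries well above them, so the groups overlapped throughout. Between OE-WD and CT-WD its log2FC was -0.06 (SE 0.18, edgeR adjusted p = 0.911), with 0.08 without CT-WD 1, -0.24 without CT-WD 3 and 0.06 without OE-WD 4.

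Hnrnpa2b1 (ENSMUSG00000004980, chr6:51460932-51469894, minus strand) had the opposite value in CT-WD 3. It was at 384, 426 and 434 CPM in CT-CTD 1 to 3 and at 383, 444 and 537 CPM in CT-WD 1 to 3. Levels were 420, 415, 426 and 334 CPM in OE-CTD 1 to 4, against 432, 417, 406 and 340.5 CPM in OE-WD 1 to 4. CT-WD 3 was the highest of all libraries and OE-CTD 4 and OE-WD 4 the lowest, with the others close together. edgeR put the log2FC of OE-WD over CT-WD at -0.19 (SE 0.121, edgeR adjusted p = 0.460), with -0.05 without CT-WD 3, -0.30 without CT-WD 1 and -0.12 without OE-WD 4.

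The question of the genotype comparison on WD was whether muscle of EC-Myc OE mice differed from that of CT mice under the same obesogenic diet. No member passed the test between OE-WD and CT-WD. At an edgeR adjusted p under 0.05, 0 of 30 members were called, and DESeq2 called 0 as well, where edgeR called 112 of 15458 genes (0.725%). At an unadjusted p under 0.05 there were 2 members, Hnrnpa3 lower and Hnrnpul1 higher in OE-WD, against 16.9% of all genes tested, and DESeq2 had 3 members. There were 7 without CT-WD 1 (26.0% of genes), 5 without OE-CTD 4 (18.0%) and 1 without CT-WD 3 (10%). Libraries of the groups did not overlap for these same 2 members, against 11.6% of all genes. Members were therefore not more often past either limit than genes at large.

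With all libraries, the size of any difference in the members was bounded closely in whole-muscle RNA. Their log2FCs between OE-WD and CT-WD ran from -0.35 to 0.21, and for 30 of 30 the 95% interval lay within a 1.5-fold change in either direction (0.585 on the log2 scale), as it did for 50.7% of all genes tested. Without CT-WD 1 the log2FC of Hnrnpa3 was -0.44 (SE 0.111), and its 95% interval then passed the 1.5-fold limit. The median log2FC of the members was -0.06, against 0.01 over all genes tested, and 21 of 30 were lower in OE-WD (all genes 49.1%). This tilt rested in part on OE-WD 4, without which the median was -0.03 and 16 of 30 were lower. In bulk muscle, fewer cells of a type and less RNA per cell cannot be told apart. These intervals do not bound a difference confined to endothelial cells, a minority of the cells of a muscle.

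Hnrnpa3 (ENSMUSG00000059005, chr2:75659261-75669407, plus strand), which binds the same kind of sites as Hnrnpa1, had the smallest p of the members on WD. It was at 28.8, 29.0 and 32.1 CPM in CT-CTD 1 to 3 and at 30.8, 34.7 and 40.5 CPM in CT-WD 1 to 3. Levels were 26.7, 25.8, 32.2 and 26.7 CPM in OE-CTD 1 to 4, against 30.2, 28.7, 27.0 and 24.9 CPM in OE-WD 1 to 4. Every OE-WD library was below every CT-WD library, but OE-WD 1 and CT-WD 1 were nearly level, and CT-WD 3 stood above all others. Its log2FC was -0.35 (SE 0.107, 95% interval from -0.58 to -0.12, edgeR adjusted p = 0.122). Without CT-WD 1 it was -0.44 with an edgeR adjusted p of 0.0239. Hnrnpa3 was then the single member called of 30, against 1499 of 15828 genes at large. Over all alternatives the adjusted p of Hnrnpa3 ran from 0.0239 to 0.486.

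Hnrnpul1 (ENSMUSG00000040725, chr7:25721165-25754757, minus strand), a relative of Hnrnpu with a role in the response to DNA damage, was the member higher in OE-WD. It was at 80.0, 83.9 and 79.7 CPM in CT-CTD 1 to 3 and at 75.5, 80.0 and 70.8 CPM in CT-WD 1 to 3. Levels were 85.8, 80.7, 82.2 and 87.0 CPM in OE-CTD 1 to 4, against 83.4, 89.9, 86.1 and 83.9 CPM in OE-WD 1 to 4. OE-WD lay above CT-WD with no overlap, and CT-CTD overlapped both. The log2FC was 0.19 (SE 0.0683, edgeR adjusted p = 0.186), a difference of 13.8%.

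Hnrnph1 (ENSMUSG00000007850, chr11:50376990-50386528, plus strand), the main member of the F/H group here, was next by p. It was at 139, 125 and 127 CPM in CT-CTD 1 to 3 and at 139, 158 and 159 CPM in CT-WD 1 to 3. Levels were 130, 141, 139 and 106 CPM in OE-CTD 1 to 4, against 147, 128, 132 and 113 CPM in OE-WD 1 to 4. CT-WD 2 and 3 were high and OE-CTD 4 and OE-WD 4 low, and CT-WD 1 lay within the range of OE-WD. edgeR put the log2FC of OE-WD over CT-WD at -0.22 (SE 0.107, edgeR adjusted p = 0.302).

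The abundant SR proteins Srsf2 and Srsf6 differed less on WD. Srsf2 (ENSMUSG00000034120, chr11:116849901-116853094, minus strand) was at 96.9, 87.5 and 96.3 CPM in CT-CTD 1 to 3 and at 92.6, 99.3 and 76.8 CPM in CT-WD 1 to 3. Levels were 93.2, 92.6, 90.7 and 79.4 CPM in OE-CTD 1 to 4, against 89.0, 89.6, 95.8 and 82.5 CPM in OE-WD 1 to 4. Its lowest libraries were CT-WD 3, OE-CTD 4 and OE-WD 4, as for Srsf5. Its log2FC of OE-WD over CT-WD was -0.01 (SE 0.0936, edgeR adjusted p = 0.983), and the sign depended on the setting, with 0.02 without CT-WD 1, -0.11 without CT-WD 3 and 0.03 without OE-WD 4.

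Srsf6 (ENSMUSG00000016921, chr2:162931528-162937121, plus strand) was among the steadiest of the SR proteins. It was at 93.3, 83.9 and 82.9 CPM in CT-CTD 1 to 3 and at 93.0, 93.1 and 88.1 CPM in CT-WD 1 to 3. Levels were 80.8, 84.8, 93.1 and 77.8 CPM in OE-CTD 1 to 4, against 90.2, 76.9, 93.1 and 86.0 CPM in OE-WD 1 to 4. All 4 groups overlapped, and the log2FC of OE-WD over CT-WD was -0.08 (SE 0.0849, edgeR adjusted p = 0.684), and -0.03 without OE-WD 2.

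**Figure D3:**
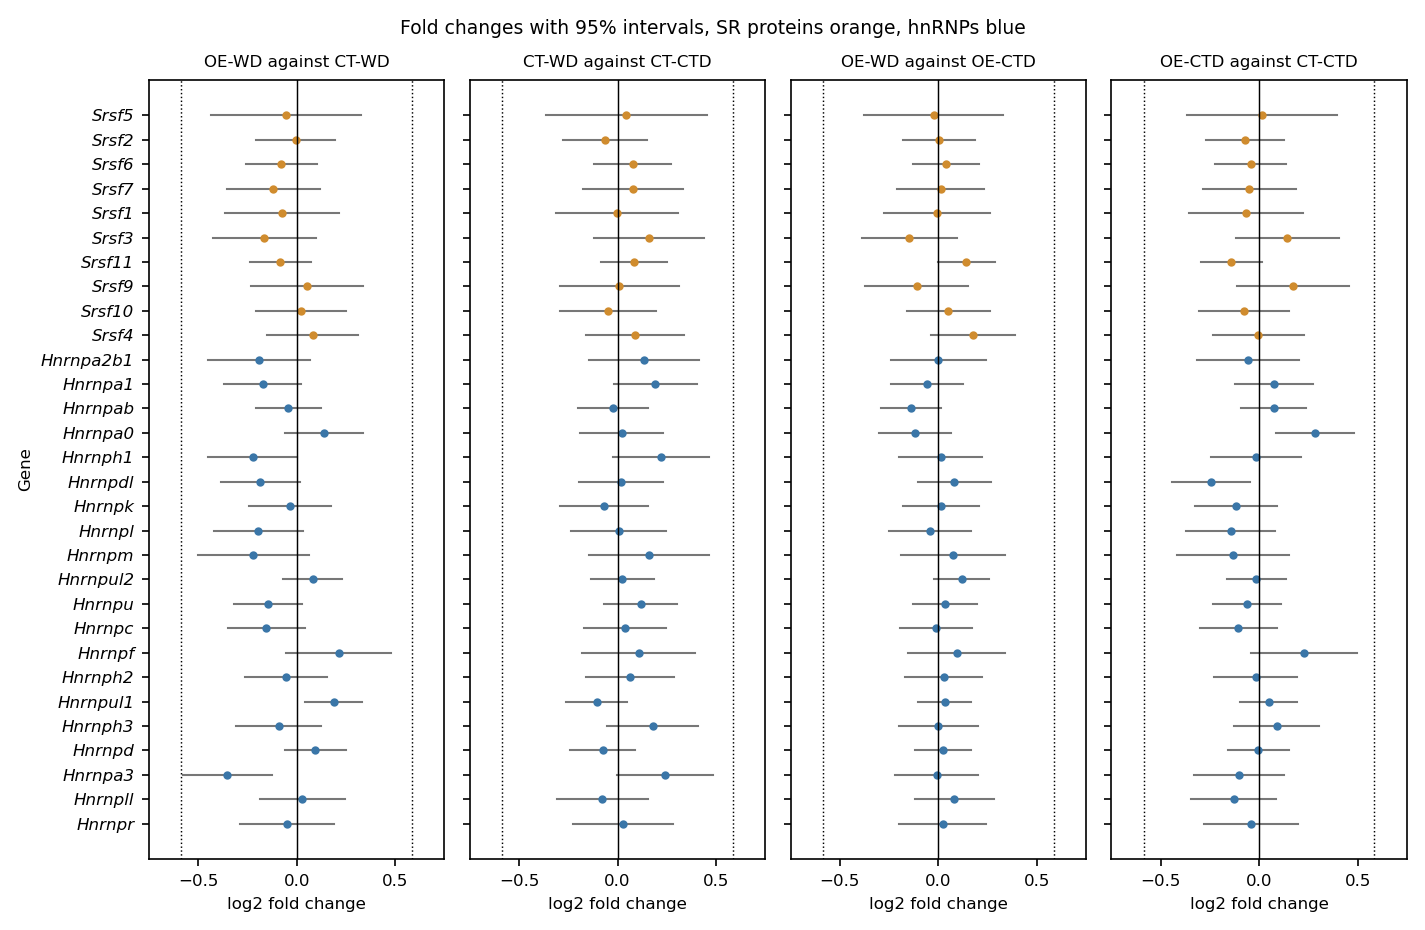
Log2 fold change (dot) and 95% interval (line) of each tested member in 4 comparisons, SR proteins in orange and hnRNPs in blue, with dotted lines at a 1.5-fold change. In each panel 30 of 30 intervals lie between the dotted lines.

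The diet comparison in CT asked what WD does to muscle without the transactivator. Between CT-WD and CT-CTD, edgeR called 0 of 30 members at an adjusted p under 0.05, DESeq2 called 0, and edgeR called 0 of 15458 genes (0%). With an unadjusted p under 0.05 there were 0 members by either tool, against 7.28% of genes, and 5 members without CT-WD 1 (12.1% of genes). The libraries did not overlap for 1 member, Hnrnpf, against 9.63% of genes, and Hnrnpf is named here because of its values. The members' median log2FC was 0.04, against 0.01 over all genes, and 22 of 30 were higher in CT-WD (48.5% of all genes were lower). For 30 of 30 the interval lay within 1.5-fold. Same-numbered CT libraries deviated together, and with the replicate number as a block 4 members were past the unadjusted limit (11.8% of genes in that fit), 0 members were called and 13 genes were called at large.

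Some genes had like levels in the libraries numbered 1 in CT, and those given here were chosen after their values were seen. Hnrnpl was at 122 CPM in CT-CTD 1 and 120.5 CPM in CT-WD 1, and between 149 and 154 CPM in the other 4 CT libraries. Hnrnpa2b1 was at 384 and 383 CPM in them, the lowest values in CT. The muscle kinase Srpk3 was at 40.4 and 40.0 CPM in these libraries and between 54.0 and 62.7 CPM in the other 4. Other members did not follow, among them Hnrnpk, at 137 and 146.5 CPM in these libraries and 132 CPM in CT-WD 2. The codes of the libraries numbered 1 are numbered apart from those of the other 4 CT libraries, and the labels do not say what a code stands for.

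The members with the smallest p in the diet comparison in CT were 3 hnRNPs, whose differences came with CT-WD 2 and 3. For Hnrnpa3 the log2FC was 0.24 (SE 0.115, edgeR adjusted p = 0.691) and 0.13 without CT-WD 3, and CT-WD 1, at 30.8 CPM, lay within the range of CT-CTD. For Hnrnph1 it was 0.22 (SE 0.115, edgeR adjusted p = 0.754), and CT-WD 1 and CT-CTD 1 were level.

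Hnrnpa1 (ENSMUSG00000046434, chr15:103240432-103246692, plus strand) was at 108, 110 and 113 CPM in CT-CTD 1 to 3 and at 109, 125.5 and 143 CPM in CT-WD 1 to 3. Levels were 126, 119, 116 and 102 CPM in OE-CTD 1 to 4, against 112, 115, 115 and 105 CPM in OE-WD 1 to 4. CT-WD 3 again was highest and OE-CTD 4 lowest, while CT-WD 1 lay within CT-CTD. Between CT-WD and CT-CTD the log2FC was 0.19 (SE 0.0991, edgeR adjusted p = 0.747), and 0.09 without CT-WD 3. Between OE-WD and CT-WD it was -0.17 (SE 0.0924, edgeR adjusted p = 0.362), with -0.07 without CT-WD 3 and -0.27 without CT-WD 1. Both comparisons use the CT-WD libraries, so these values are not independent.

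The diet comparison in EC-Myc OE gave the smallest differences of all. Between OE-WD and OE-CTD, edgeR called 0 of 30 members, DESeq2 called 0, and edgeR called 1 of 15458 genes (0.00647%). At an unadjusted p under 0.05 there were 0 members by edgeR and 1 by DESeq2, against 4.20% of genes. The libraries did not overlap for 2 members, Srsf11 and Hnrnpul2, against 4.08% of genes. The median log2FC of the members was 0.01, against 0.01 over all genes, with extremes of -0.15 and 0.18, and 30 of 30 intervals lay within 1.5-fold. Of the members 12 of 30 were lower in OE-WD (all genes 48.6%), 22 without OE-CTD 4 and 6 without OE-WD 4, so no direction was shared by these settings.

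Srsf11 (ENSMUSG00000055436, chr3:158010473-158036639, minus strand), an atypical member that contacts the complex at the branch point, was the SR protein with the smallest p there. It was at 68.8, 70.2 and 78.3 CPM in CT-CTD 1 to 3 and at 73.2, 79.2 and 77.8 CPM in CT-WD 1 to 3. Levels were 67.9, 65.1, 68.8 and 60.6 CPM in OE-CTD 1 to 4, against 75.7, 72.2, 70.5 and 71.2 CPM in OE-WD 1 to 4. OE-CTD was low and lay just under OE-WD, which lay within the range of CT-CTD. Its log2FC was 0.14 (SE 0.0680, edgeR adjusted p = 1) between OE-WD and OE-CTD. Between OE-CTD and CT-CTD it was -0.14 (SE 0.0732, edgeR adjusted p = 0.372), -0.08 without CT-CTD 3, and these comparisons share the OE-CTD libraries.

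Hnrnpul2 (ENSMUSG00000071659, chr19:8819401-8834142, plus strand) had the narrowest range over the 14 libraries. It was at 111, 97.8 and 102 CPM in CT-CTD 1 to 3 and at 109, 107 and 100.4 CPM in CT-WD 1 to 3. Levels were 104.5, 104, 96.8 and 106 CPM in OE-CTD 1 to 4, against 112, 112, 116 and 106 CPM in OE-WD 1 to 4. The lowest OE-WD library and the highest OE-CTD library were both at 106 CPM. The log2FC between them was 0.12 (SE 0.0655, edgeR adjusted p = 1).

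Hnrnpab (ENSMUSG00000020358, chr11:51600100-51606847, minus strand) was 1 of the 4 members above their mean in OE-CTD 4, with Hnrnpll, Hnrnpul1 and Hnrnpul2. It was at 96.0, 104 and 101 CPM in CT-CTD 1 to 3 and at 93.0, 99.9 and 103 CPM in CT-WD 1 to 3. Levels were 108, 106, 96.4 and 112 CPM in OE-CTD 1 to 4, against 86.8, 96.4, 99.6 and 100.3 CPM in OE-WD 1 to 4. OE-CTD 4 held its highest level of the 14 libraries and OE-WD 1 its lowest, with overlap among all groups. The log2FC between OE-WD and OE-CTD was -0.14 (SE 0.0718, edgeR adjusted p = 1), and between OE-WD and CT-WD -0.04 (SE 0.0775, edgeR adjusted p = 0.823), with -0.08 without CT-WD 1, -0.01 without CT-WD 3 and -0.07 without OE-WD 4.

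The genotype comparison on control diet asked what EC-Myc OE did without the obesogenic diet. With all libraries it called the most genes, whereas without CT-WD 1 the genotype comparison on WD called more (1499 against 615). Between OE-CTD and CT-CTD, edgeR called 0 of 30 members, DESeq2 called 0, and edgeR called 413 of 15458 genes (2.67%). With an unadjusted p under 0.05 there were 2 members by either tool, Hnrnpa0 higher and Hnrnpdl lower in OE-CTD, against 15.9% of genes. The libraries did not overlap for these same 2, against 15.5% of genes. The members' median log2FC was -0.04, against -0.001 over all genes, and 21 of 30 were lower in OE-CTD (all genes 50.1%). The median was 0.02 and 13 of 30 were lower without OE-CTD 4, so the direction of the median rested on that library. The 30 intervals again lay within 1.5-fold.

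Hnrnpa0 (ENSMUSG00000007836, chr13:58125879-58128556, minus strand), a member of the A/B group encoded without introns and known for binding AU-rich elements, had the smallest p. It was at 68.0, 69.5 and 67.3 CPM in CT-CTD 1 to 3 and at 71.7, 69.0 and 67.3 CPM in CT-WD 1 to 3. Levels were 93.1, 83.2, 81.9 and 73.3 CPM in OE-CTD 1 to 4, against 69.7, 81.3, 85.3 and 68.9 CPM in OE-WD 1 to 4. The 6 CT libraries lay in a narrow band, all 4 OE-CTD libraries lay above it, and OE-WD 1 and OE-WD 4 lay within it. edgeR put the log2FC between OE-CTD and CT-CTD at 0.28 (SE 0.0931, 95% interval from 0.08 to 0.48, edgeR adjusted p = 0.132). Without OE-CTD 4 and OE-WD 4, an alternative chosen after seeing the data, it was 0.33 with an adjusted p of 0.0437. Over the alternatives its adjusted p ran from 0.0437 to 0.352.

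Hnrnpdl (ENSMUSG00000029328, chr5:100033577-100039664, minus strand), variants of which cause a limb-girdle muscular dystrophy in people, was the member lower in OE-CTD. It was at 119.5, 116 and 121 CPM in CT-CTD 1 to 3 and at 114, 122 and 125 CPM in CT-WD 1 to 3. Levels were 108, 105, 104 and 83.7 CPM in OE-CTD 1 to 4, against 107, 108.5, 115 and 92.8 CPM in OE-WD 1 to 4. The OE-CTD libraries lay below CT-CTD with no overlap, OE-CTD 4 lowest, and OE-WD 3 lay within the range of CT-WD. Its log2FC was -0.25 (SE 0.0933, 95% interval from -0.45 to -0.05, edgeR adjusted p = 0.198). Over the alternatives it stayed between -0.28 and -0.17 and was called in none.

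Hnrnpf, of the F/H group, was called between OE-CTD and CT-CTD only when OE-CTD 4 and OE-WD 4 were left out, and is named for that. This alternative was chosen after seeing the data. OE-CTD 4 held the lowest level of Hnrnpf, so leaving it out raised the OE-CTD mean, and the call is not separate support. Hnrnpf was at 36.5, 33.6 and 36.6 CPM in CT-CTD 1 to 3 and at 39.3, 38.5 and 37.0 CPM in CT-WD 1 to 3. Levels were 44.1, 44.5, 46.8 and 30.9 CPM in OE-CTD 1 to 4, against 44.2, 50.5, 45.6 and 37.2 CPM in OE-WD 1 to 4. Replicates 1 to 3 of both EC-Myc OE groups lay above all CT libraries, and replicate 4 lay among or below them. The log2FC between OE-CTD and CT-CTD was 0.23 (SE 0.126, edgeR adjusted p = 0.410) with all libraries and 0.34 (SE 0.0718, edgeR adjusted p = 0.0250) without both. With both left out, 555 of 15356 genes were called at large and 2 of 30 members, Hnrnpf and Hnrnpa0.

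**Figure D4:**
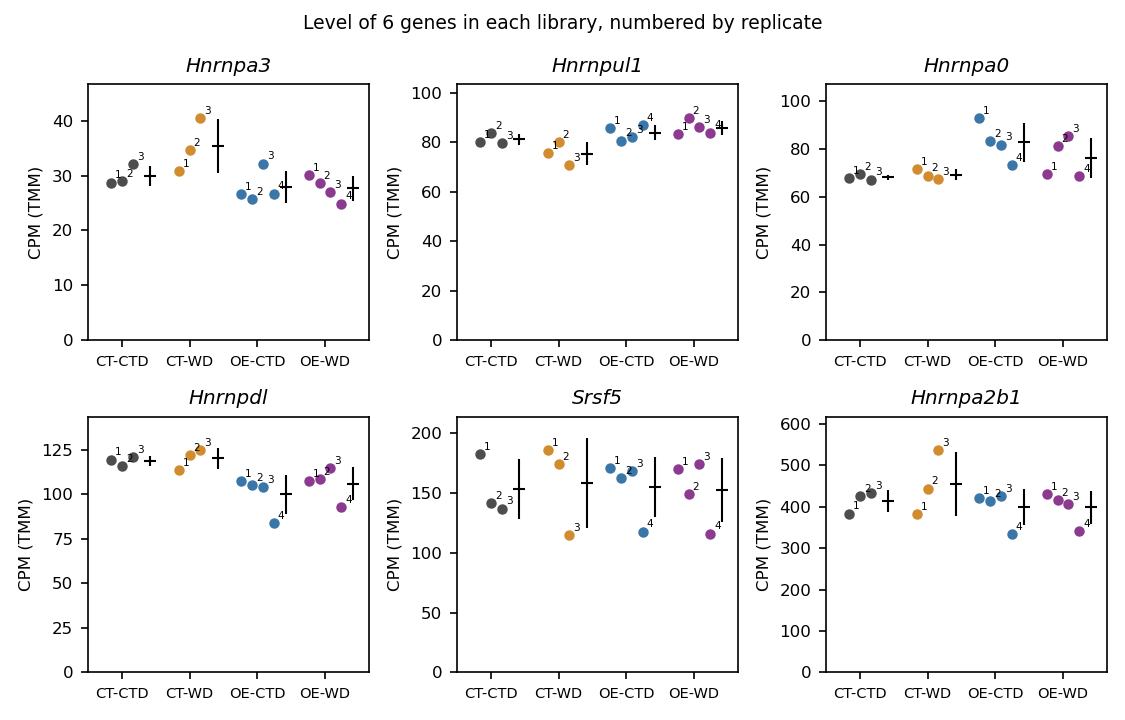
CPM of 6 members in each library, a dot per library numbered by replicate, with the group mean and SD as a black bar to the right of each group. Hnrnpa3 and Hnrnpul1 do not overlap between OE-WD and CT-WD, Hnrnpa0 and Hnrnpdl do not overlap between OE-CTD and CT-CTD, and Srsf5 and Hnrnpa2b1 are lowest or nearly so in replicate 4 of both EC-Myc OE groups.

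The interaction asked whether the response to diet differed between the genotypes. It called 0 of 30 members by edgeR and 0 by DESeq2, and 0 of 15458 genes by edgeR (0%). At an unadjusted p under 0.05 there were 0 members by either tool, against 5.92% of genes, with 3 members without OE-CTD 4 (7.91% of genes) and 2 without CT-WD 1 (10.7%). The members' median was -0.04, against -0.01 over all genes, and 0.02 without OE-WD 4, and 28 of 30 intervals lay within 1.5-fold, so the interaction was bounded less closely than the comparisons of pairs of groups. The smallest p was that of Hnrnpa1, with a log2 value of -0.25 (SE 0.131, edgeR adjusted p = 0.857), and -0.15 without CT-WD 3. That of Hnrnpa3 was -0.25 (SE 0.152, edgeR adjusted p = 0.877), and -0.14 without CT-WD 3.

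Srsf3 (ENSMUSG00000071172, chr17:29032628-29043373, plus strand) had the largest interaction value. It was at 62.1, 62.0 and 67.4 CPM in CT-CTD 1 to 3 and at 70.8, 65.1 and 77.8 CPM in CT-WD 1 to 3. Levels were 68.2, 74.5, 82.7 and 56.2 CPM in OE-CTD 1 to 4, against 72.0, 57.1, 69.3 and 56.0 CPM in OE-WD 1 to 4. OE-CTD alone covered nearly the whole range of the other groups. The interaction was -0.31 on the log2 scale (SE 0.174, 95% interval from -0.68 to 0.06, edgeR adjusted p = 0.857).

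The kinases that phosphorylate SR proteins set where in the nucleus these proteins lie and how they act. Of 10 kinase genes, all tested, edgeR called 0 in each of the 5 comparisons. With an unadjusted p under 0.05 there were 2 lower and 0 higher between OE-WD and CT-WD, against 8.42% of all genes lower and 8.44% higher. The median log2FC of the list was -0.10 between OE-WD and CT-WD and -0.13 between OE-CTD and CT-CTD. In these comparisons 8 and 9 of 10 were lower (all genes 49.1% and 50.1%).

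Clk1, a nuclear kinase whose own splicing responds to stress and temperature, had the smallest p of the kinases on WD. It was at 81.8, 66.3 and 65.6 CPM in CT-CTD 1 to 3 and at 74.3, 101.5 and 87.8 CPM in CT-WD 1 to 3. Levels were 66.7, 62.1, 67.2 and 46.8 CPM in OE-CTD 1 to 4, against 75.8, 52.3, 75.6 and 39.5 CPM in OE-WD 1 to 4. OE-WD 4 and OE-CTD 4 were lowest and CT-WD 2 highest, and OE-WD 1 and 3 were just above CT-WD 1. edgeR put the log2FC of OE-WD over CT-WD at -0.53 (SE 0.195, edgeR adjusted p = 0.188), -0.37 without OE-WD 4, and it was called only without the filter on low counts (edgeR adjusted p = 0.0411). For Srpk3, the SRPK kinase of striated muscle, it was -0.13 (SE 0.136, edgeR adjusted p = 0.681), -0.27 without CT-WD 1, -0.04 without CT-WD 2 and -0.07 without CT-WD 3, with EC-Myc OE libraries between 44.2 and 51.6 CPM and CT libraries between 40.0 and 62.7 CPM.

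SR-related proteins and the exon junction complex act beside the SR proteins at exon ends. Of 26 such genes edgeR called 0 in each of the 5 comparisons, and at an unadjusted p under 0.05 3 were lower and 0 higher between OE-WD and CT-WD, against 8.42% and 8.44% of all genes. Rsrp1, an arginine- and serine-rich protein, had the smallest p, with a log2FC of -0.48 (SE 0.172, edgeR adjusted p = 0.182). It was at 566.9, 800.7 and 688.7 CPM in CT-WD 1 to 3 and at 593, 446, 543 and 390 CPM in OE-WD 1 to 4. OE-WD 1 lay above CT-WD 1, so the groups overlapped.

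Of 15 hnRNP proteins under other symbols, 0 were called in each comparison, with 1 higher and 1 lower at an unadjusted p under 0.05 between OE-WD and CT-WD (all genes 8.44% and 8.42%). Tardbp, which encodes TDP-43 and represses cryptic exons, was at 102, 115 and 105 CPM in CT-WD 1 to 3 and at 97.5, 91.5, 90.2 and 84.5 CPM in OE-WD 1 to 4. All OE-WD libraries were lower than all CT-WD libraries, with a log2FC of -0.24 (SE 0.0809, edgeR adjusted p = 0.154). Ptbp1, the polypyrimidine tract-binding repressor, was at 24.6, 19.0 and 16.1 CPM in CT-WD 1 to 3 and at 20.9, 25.7, 23.7 and 24.7 CPM in OE-WD 1 to 4. These groups overlapped, with a log2FC of 0.25 (SE 0.140, edgeR adjusted p = 0.380), 0.44 without CT-WD 1 and 0.12 without CT-WD 3.

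Splicing regulators of the MBNL, CELF, RBFOX and RBM families control the change from fetal to adult isoforms in muscle. The list of muscle splicing regulators also held genes outside these families, among them Qk, Esrp1, Esrp2, Nova2, Rbpms, Khdrbs1, Khdrbs3 and Tia1. Of 20 listed, 19 were tested and 0 called in any comparison, with 2 higher and 2 lower at an unadjusted p under 0.05 between OE-WD and CT-WD (all genes 8.44% and 8.42%). Khdrbs3, a STAR family regulator, had a log2FC of -0.37 there (SE 0.118, edgeR adjusted p = 0.139). It was at 23.1, 23.0 and 28.9 CPM in CT-WD 1 to 3 and at 19.1, 22.3, 18.5 and 17.4 CPM in OE-WD 1 to 4, with no overlap.

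Core spliceosome proteins form the small nuclear ribonucleoproteins and the catalytic machine. All 50 were tested and edgeR called 0 in each of the 5 comparisons. At an unadjusted p under 0.05 9 were lower and 1 higher between OE-WD and CT-WD, where all genes had 8.42% lower and 8.44% higher. A log2FC below 0 was found for 37 of 50 (all genes 49.1%), with a median of -0.11. In the other comparisons there were 1 higher and 0 lower between CT-WD and CT-CTD, 0 higher and 2 lower between OE-WD and OE-CTD, and 3 higher and 2 lower between OE-CTD and CT-CTD. The tilt on WD was not tested as a list.

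U2af1, which reads the AG at the end of introns, had the smallest p of that list. It was at 20.9, 21.1 and 21.3 CPM in CT-CTD 1 to 3 and at 22.5, 25.5 and 20.2 CPM in CT-WD 1 to 3. Levels were 21.8, 22.3, 20.2 and 21.7 CPM in OE-CTD 1 to 4, against 18.8, 17.8, 19.3 and 15.6 CPM in OE-WD 1 to 4. OE-WD lay below every other library. For U2af1 the log2FC of OE-WD over CT-WD was -0.34 (SE 0.0964, edgeR adjusted p = 0.103), and DESeq2 called it with an adjusted p of 0.0393.

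The cold-inducible RNA-binding proteins Cirbp and Rbm3, whose level depends on temperature and time of day, were not called in any comparison, with 0 higher and 1 lower at an unadjusted p under 0.05 on WD (all genes 8.44% and 8.42%). For Rbm3 the log2FC of OE-WD over CT-WD was -0.33 (SE 0.142, edgeR adjusted p = 0.255), from 45.2, 59.8 and 54.1 CPM in CT-WD 1 to 3 to 44.2, 41.1, 50.4 and 32.9 CPM in OE-WD 1 to 4. For Cirbp it was -0.07 (SE 0.149, edgeR adjusted p = 0.841), -0.02 without CT-WD 1, -0.17 without CT-WD 3 and 0.02 without OE-WD 4, and CT-WD 3, OE-CTD 3, OE-CTD 4 and OE-WD 4 were its lowest libraries. OE-WD 4 was the lowest of all for both genes.

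MYC-responsive splicing factors, namely Srsf1, Hnrnpa1, Hnrnpa2b1, Ptbp1 and Prmt5, were also not called. All 5 were tested, with 0 past an unadjusted p under 0.05 on WD (all genes 16.9%) and 1 on control diet (all genes 15.9%). The 1 on control diet was Ptbp1, higher in OE-CTD. Ptbp1 was at 21.4, 26.9, 26.8 and 22.1 CPM in OE-CTD 1 to 4 and at 18.9, 15.7 and 19.6 CPM in CT-CTD 1 to 3. Of the 5 genes, 3 were lower in OE-CTD than in CT-CTD. The median log2FC of the 5 was -0.07 between OE-WD and CT-WD and -0.06 between OE-CTD and CT-CTD. For mouse Myc itself the log2FC was -0.49 between OE-WD and CT-WD (SE 0.304, edgeR adjusted p = 0.442), and -0.10 without CT-WD 3 (edgeR adjusted p = 0.948), with CT-WD 3 at 13.3 and CT-WD 2 at 4.93 CPM. It was -0.78 without CT-WD 2.

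Some markers of other cell types differed between the genotypes. Endothelial markers, 10 of 10 tested with Cdh5 the most abundant, summed to 454, 444 and 482 CPM in CT-CTD 1 to 3 and to 534, 476 and 511 CPM in CT-WD 1 to 3. They summed to 552, 563, 533 and 511 CPM in OE-CTD 1 to 4 and to 570, 574, 578 and 576 CPM in OE-WD 1 to 4. All EC-Myc OE libraries were above all CT libraries except CT-WD 1 and 3, which overlapped OE-CTD. Cdh5 rose between CT-WD and OE-WD (log2FC 0.46, edgeR adjusted p = 0.0322), and Tek rose between CT-CTD and OE-CTD (0.52, edgeR adjusted p = 0.0232). On WD, 6 of the 10 markers were higher and 1, Flt1, lower at an unadjusted p under 0.05, and 3 had a log2FC below 0 (all genes 8.44%, 8.42% and 49.1%).

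Fibroblast markers, 8 of 8 tested with Col1a2 the most abundant, summed to 604, 531 and 440 CPM in CT-CTD 1 to 3 and to 1430, 466 and 455 CPM in CT-WD 1 to 3. They summed to 1290, 1530, 1410 and 869 CPM in OE-CTD 1 to 4 and to 1000, 2350, 1310 and 1040 CPM in OE-WD 1 to 4. All EC-Myc OE libraries were above all CT libraries except CT-WD 1, and of this list Pi16 was called, between OE-CTD and CT-CTD. Tendon markers, 6 of 6 tested with Fmod the most abundant, summed to between 301 and 845 CPM in EC-Myc OE, to 478 CPM in CT-WD 1 and to between 84.1 and 235 CPM in the other CT libraries. Macrophage markers, 9 of 10 tested with Lyz2 the most abundant, summed to between 83.6 and 138 CPM in EC-Myc OE, to 139 CPM in CT-WD 1 and to between 46.6 and 86.8 CPM in the other CT libraries.

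The remaining lists varied by library or were low. Adipocyte markers (8 of 8 tested) summed to between 1600 and 2580 CPM with Car3, also a muscle gene, the most abundant. Schwann cell markers (6 of 6) summed to between 121 and 356 CPM, blood markers (4 of 5) to between 125 and 382 CPM, and satellite cell markers (6 of 6) to between 53.0 and 127 CPM. Of the satellite cell list Myod1 was called, lower in OE-CTD than in CT-CTD. Epidermis markers (6 of 6) summed to between 2.45 and 122 CPM, and of 7 lymphocyte markers 0 passed the filter. No listed marker that was tested was at 0 in all libraries.

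Among signs of sample state, nuclear-retained long noncoding RNAs had 1 of 4 genes called, Meg3, higher in OE-CTD than in CT-CTD. Immediate-early genes had 2 of 9 called in that comparison (all genes 2.67%), Junb and Ier2, both higher, with a list median of 1.03 there, -0.24 between OE-WD and CT-WD and 1.38 between CT-WD and CT-CTD. Dbp-phase clock genes had 4 of 10 called between OE-WD and CT-WD (all genes 0.725%), namely Dbp, Hlf, Nr1d1 and Ciart, all higher, and 3 between OE-CTD and CT-CTD, Nr1d1 and Ciart higher and Per2 lower. Of the Bmal1-phase list, where 7 entries name 6 genes because Arntl and Bmal1 are the same gene, Arntl was called, lower in OE-WD than in CT-WD. Between OE-WD and CT-WD, 4 genes at large were called with only the groups compared and 1 with the replicate block. Some of these clock calls were therefore lost there, and the call of Cdh5 was not followed through the alternatives. Same-numbered libraries of OE-WD and CT-WD correlated by -0.23 to -0.0647, and the block leaves OE-WD 4 without weight. Losses under the block therefore cannot show how firm these calls are. The part of cell make-up, clock time and sample state in the values of the splicing factors was not tested.

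The counts of some members may hold reads of other genes. On the coordinates of the count table, 15 of 31 members overlapped another gene and 12 an antisense gene, and whether counting used strand was not given. For 4 members the other gene was not small beside the member. Hnrnpab, at 100 CPM before normalization, overlaps Phykpl at 18.7 CPM on the other strand. Srsf2, at 90.5 CPM, faces Mfsd11 at 27.9 and Mettl23 at 22.3 CPM, and Hnrnph3, at 25.1 CPM, faces Rufy2 at 5.99 CPM. Hnrnpm, at 105 CPM, shares its strand with a gene listed as 2-Mar at 77.5 CPM. Genes of the A/B group, among them Hnrnpa1 and Hnrnpa3, also have processed pseudogenes, and how reads that fit several places were counted was not given.

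The promoters of the members were rich in G and C. RefSeq windows on GRCm38.p6, from 250 bases before to 50 bases after a transcript start, were found for 29 of 31 members, and Hnrnpul2 and Hnrnpll had none. Taking the highest window of each gene, the median GC content was 69.0% over members and 61.7% over the 11033 genes tested with a window. The E-box CACGTG, which reads the same on both strands and is the best known binding sequence of c-Myc with Max, was searched because the transgene encodes that factor. It was in a window of 5 of 29 members (17.2%), 0 of 11 SR proteins and 5 of 18 hnRNPs, against 11.5% of genes tested with a window and 7.15% of all 32851 windows.

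The 5 were Hnrnpa3, Hnrnpd, Hnrnpf, Hnrnph2 and Hnrnpm. In Hnrnph2 and Hnrnpm the E-box lay after the start, and in 3 it lay before it, by 18 bases in Hnrnpa3, 32 in Hnrnpd and 79 in the window of Hnrnpf that holds it, 1 of its 4 windows. These 3 stretches are shown, 5′ to 3′ on the strand of the gene with the E-box in capitals. They include those of Hnrnpa3 and Hnrnpf, members called only when libraries were left out. Hnrnpa3 was then lower in OE-WD than in CT-WD, and Hnrnpf higher in OE-CTD than in CT-CTD. The stretches were not tested for any part in these values. The 3 stretches lie at chr2:75659181-75659258 (plus strand), chr5:99978945-99979030 (minus strand) and chr6:117907665-117907750 (plus strand). As a check of orientation, bases just after the start were looked for in the known transcripts of each gene. They were found for the windows of Hnrnpa3 and Hnrnpd, and not for this window of Hnrnpf.
Hnrnpa3: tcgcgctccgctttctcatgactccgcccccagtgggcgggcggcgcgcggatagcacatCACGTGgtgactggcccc
Hnrnpd: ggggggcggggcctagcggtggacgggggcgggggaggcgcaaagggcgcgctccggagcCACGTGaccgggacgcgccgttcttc
Hnrnpf: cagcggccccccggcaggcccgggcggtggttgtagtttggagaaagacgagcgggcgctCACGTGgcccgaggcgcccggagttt

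A match is a description of these letters, and binding was not measured in these libraries. Hnrnpd, with an E-box in a similar place to that of Hnrnpa3, was at 44.1, 42.5 and 39.8 CPM in CT-WD 1 to 3 and at 43.6, 46.2, 42.5 and 47.8 CPM in OE-WD 1 to 4. These values overlapped, and neither gene passed the test.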

How the data were processed

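The authors deposited counts of reads per gene, without normalization, and FPKM values, in which the authors divided each count by gene length and a library total (between 79.9% and 98.0% of the summed counts). Per the submitters' processing notes, HISAT2 2.0.5, featureCounts 1.5.0-p3 and mm10 were used. The strand setting was not given in the sources used here. The test was edgeR 4.0.16 (R 4.3.3) on the counts of all 14 libraries (filterByExpr, TMM, a mean for each of the 4 groups, quasi-likelihood test, Benjamini-Hochberg adjustment over the 15458 genes tested). A gene was called at an adjusted p under 0.05 at any fold. Log2 CPM used a prior count of 2. Intervals are 95% intervals of the fitted log2 fold change. Each group comparison and the interaction was repeated with RLE size factors, DESeq2 1.42.0, no filter, only the groups compared (not the interaction, which uses all 4), limma 3.58.1 on log2(FPKM + 1) and log2(FPKM + 0.1), the replicate number as a block, and without each library. The steps were tested on simulated data.

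The members and gene lists were chosen with earlier results of these data known. The 3 SR protein and 3 hnRNP genes with the highest FPKM, called members, the 3 members with the smallest p where fewer than 3 were called, and for each pathway list its called genes or the gene with the smallest p on WD were named in full, beside Srpk3, Clk1, Ptbp1, Cirbp, Rbm3 and Myc. Deviations of same-numbered libraries from their group means correlated across genes by 0.385, 0.123 and 0.203 for CT-WD and CT-CTD. A pairing by these numbers comes from this check, since the labels state none. The main test was unpaired, and the replicate number entered only as a block in an alternative. The labels do not say that replicates are separate animals, several EC-Myc OE libraries share a number in their sample codes, and p-values then measure the spread between these samples. Divided by its degrees of freedom, chi-square was at least 7.50 in all 91 pairs of libraries, so no library was the same library sequenced again, while libraries from the same animal were not tested for. At these depths the members had a median standard error of about 0.10 on the log2 scale. RefSeq promoter windows on GRCm38.p6 were matched by symbol.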

Additional observations from a re-analysis of the deposited data

Results flagged for a closer look

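In 9 of the 60 groups of 4 libraries examined, 1 for each tested member in OE-CTD and in OE-WD, a single library lay far from the other 3. The measure was Dixon's, the gap to the nearest library as a share of the group's range, and its limit is one that chance passes in about 1 in 20 groups. All 9 were in OE-CTD, and in 7 of them OE-CTD 4 was the low library. The share was 0.8763 for Hnrnpa2b1 (334 CPM, nearest 415 CPM), 0.8432 for Hnrnpdl (83.6 CPM, nearest 104 CPM), 0.8294 for Hnrnpf (30.9 CPM, nearest 44.1 CPM) and 0.8688 for Hnrnpk (124 CPM, nearest 145 CPM). It was 0.9183 for Hnrnpm (73.2 CPM, nearest 103 CPM), 0.8395 for Hnrnpr (22.4 CPM, nearest 29.5 CPM) and 0.8352 for Srsf5 (118 CPM, nearest 162 CPM). In the other 2 a library was high, with a share of 0.8527 for Hnrnpa3 (32.2 CPM, nearest 26.7 CPM) in OE-CTD 3 and of 0.9393 for Srsf4 (13.5 CPM, nearest 11.2 CPM) in OE-CTD 2. The 7 that involve OE-CTD 4 rest on the same library and are not independent. Its mitochondrial share of counts was 14.9%, and the part of that share in these levels was not tested.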

How the results depend on the processing

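Over 22 alternatives, 21 planned and 1 chosen after seeing the data, 659 of the values of the 31 results on single genes kept their direction and side of the threshold, 4 passed the threshold and 16 reversed. Members called between OE-WD and CT-WD were between 0 and 1 of 30 without single libraries, with Hnrnpa3 when CT-WD 1 was dropped (1499 of 15828 genes at large). On control diet, dropping both OE-CTD 4 and OE-WD 4 gave 2 called members of 30 (555 of 15356 genes at large). Without single libraries, members at an unadjusted p under 0.05 were between 1 and 7 for OE-WD and CT-WD, 0 and 5 for CT-WD and CT-CTD, 0 and 2 for OE-WD and OE-CTD, 1 and 4 for OE-CTD and CT-CTD, and 0 and 3 for the interaction. The shares of all genes were 10% to 26%, 5.02% to 12.1%, 3.11% to 6.42%, 11.6% to 17.9% and 4.54% to 10.7% in that order. All reversed values were log2 fold changes between OE-WD and CT-WD near 0. With the replicate block Cirbp was 0.023, Srsf2 0.036 and Srsf5 0.081, and without both replicate-4 libraries 0.015, 0.027 and 0.053. With limma Srsf2 was 0.005 on either FPKM scale. Without single libraries Cirbp ran from -0.171 to 0.018, Hnrnpab from -0.084 to 0.002, Srsf2 from -0.106 to 0.074 and Srsf5 from -0.24 to 0.076. The cause was not tested. The number of all genes called between OE-WD and CT-WD was 112, with 573 by DESeq2, 560 without the filter, 4 with only the groups compared, 48 and 38 by limma, 1 with the block, 5 without both libraries and from 4 to 1499 without single ones. Between OE-CTD and CT-CTD it was 413, with 799, 760, 596, 230, 260, 14 and 555 in that order, and from 77 to 615 without single libraries. For CT-WD and CT-CTD it was 0, with 35 by DESeq2, 93 without the filter, 13 with the block and up to 42 without single libraries (42 without CT-WD 1). For the interaction it was 0, with 9 by DESeq2, 29 without the filter, 1 with the block and up to 1 without single libraries. The block changed no call of a member. In the genotype comparisons it leaves replicate 4, found only in EC-Myc OE, without weight. Same-numbered libraries of OE-WD and OE-CTD correlated by 0.0711 to 0.338, and 7 of 8 correlated best with their own number. Between genotypes same-numbered libraries correlated by -0.23 to 0.0465. With 3 or 4 libraries per group and these depths, members differing by less than about 1.5-fold could be missed.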
